A study of Mus musculus with 11 samples.

Results

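Cell cycle genes were examined in primary mouse microglia, the resident macrophages of the brain, as a set of 36 genes chosen by symbol from the 16934 genes of a raw count table. Of these, 13 act in DNA replication (the cyclin E genes Ccne1 and Ccne2, the helicase genes Mcm2 to Mcm7, Pcna, and the nucleotide synthesis genes Rrm1, Rrm2, Tyms and Tk1). The other 23 act mainly in G2 phase and mitosis. All 36 were in the table and all 36 were among the 11276 genes tested, although 9 had no count in at least 1 library (Ccne1, Ccne2, Rrm2 and Tyms of the replication genes, and Ccnb1, Bub1, Aurka, Kif11 and Cdca3 of the mitosis genes). Levels are given as CPM, which are counts scaled to the library's effective size by edgeR's TMM method, and are mean ± SD unless single libraries are listed.

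The study measured messenger RNA by 3′ sequencing in 11 libraries and compared microglia kept with neurons, with or without α-synuclein fibrils, to microglia alone. All microglia came from C57BL/6 pups 0 to 3 days old and had been kept unpassaged for 7 to 10 days in DMEM with 10% fetal calf serum. The group of microglia alone has 4 libraries. A second group of 3 libraries comes from co-culture for 6 h with untreated cortical neurons, themselves 14 days in culture. In the last group, of 4 libraries, the co-culture of 6 h was with neurons that had first been given fluorescently labelled α-synuclein fibrils (Atto488, 0.1 µM, 16 h) and then washed. The labels give no genetic change in any group, and they do not say how the microglia were separated from the neurons before RNA was taken. Nor do they say if replicate libraries are separate cultures or animals, so a p-value here speaks only of the scatter among these libraries, and that scatter may be technical. Total counts ran from 8253070 to 16802451 a library, and 9157 to 11739 genes had a count. Library 1 had the fewest such genes in each group (9784 in microglia alone, 9740 beside untreated and 9157 beside fibril-loaded neurons). The ribosomal RNA precursor Rn45s took 14.0% to 24.8% of counts in microglia alone, 10.7% to 15.7% with untreated neurons and 10.97% to 17.0% with fibril-loaded neurons.

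Cells that enter division first release E2F transcription factors from the retinoblastoma protein, and E2F then switches on cyclin E and the replication machinery, including the ring of MCM proteins that is loaded at origins and unwinds DNA. Genes needed later, for chromosome condensation, the spindle and its checkpoint, are held back by the DREAM complex, which sits on a promoter element called CHR (cell cycle genes homology region), and are switched on in G2 phase by B-MYB, FOXM1 and NF-Y, the last of which binds CCAAT boxes. Microglia can divide in culture, where growth factors act through the receptor Csf1r.

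The promoters are shown for members with the smallest p in either comparison with microglia alone. They were taken among members with a promoter window and a long stretch free of annotated untranslated bases. This leaves out Mcm7, which had no such stretch, and Stmn1 and Ccne2, which had no window. Cdk1 was added after the motifs had been found because its window holds all of them. Each sequence is read 5′ to 3′ on the gene's strand, ends at the base before the start site (or earlier, where bases annotated as untranslated were left out), and comes from RefSeq GRCm38.p6. Capitals mark matches to E2F, CHR or CCAAT letters. The 3 replication promoters lie at chr6:88898781-88898980, chr1:20820313-20820512 and chr1:128359706-128359905, all on the minus strand.
Mcm2: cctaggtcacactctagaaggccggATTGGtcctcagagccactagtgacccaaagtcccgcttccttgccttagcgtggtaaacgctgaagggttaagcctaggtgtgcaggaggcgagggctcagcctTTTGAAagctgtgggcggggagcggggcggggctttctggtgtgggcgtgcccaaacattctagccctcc
Mcm3: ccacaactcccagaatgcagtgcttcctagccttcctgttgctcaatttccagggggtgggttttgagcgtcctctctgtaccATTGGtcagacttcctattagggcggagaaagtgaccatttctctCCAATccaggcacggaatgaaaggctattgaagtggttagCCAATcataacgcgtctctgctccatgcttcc
Mcm6: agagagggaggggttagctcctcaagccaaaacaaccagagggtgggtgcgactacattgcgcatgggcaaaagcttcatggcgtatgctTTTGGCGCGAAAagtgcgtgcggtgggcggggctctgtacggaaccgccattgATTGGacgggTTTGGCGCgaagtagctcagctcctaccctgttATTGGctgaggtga
Mcm6 shows 3 E2F matches, of which those starting at bases -110 and -106 from the start site overlap, and 2 CCAAT boxes. Mcm2 holds a CHR match at -70 and 1 CCAAT box, and Mcm3 holds 3 CCAAT boxes here and its 2 E2F matches after the start site, at 20 and 39. The mitosis promoters lie at chr19:37376182-37376381, chr7:122159235-122159434 and chr11:117849037-117849236 on the plus strand and at chr10:69352939-69353112 on the minus strand.
Kif11: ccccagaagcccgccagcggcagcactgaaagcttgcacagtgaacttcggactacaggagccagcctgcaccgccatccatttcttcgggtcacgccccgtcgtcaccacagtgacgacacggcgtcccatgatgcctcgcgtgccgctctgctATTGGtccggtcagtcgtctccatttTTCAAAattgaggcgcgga
Plk1: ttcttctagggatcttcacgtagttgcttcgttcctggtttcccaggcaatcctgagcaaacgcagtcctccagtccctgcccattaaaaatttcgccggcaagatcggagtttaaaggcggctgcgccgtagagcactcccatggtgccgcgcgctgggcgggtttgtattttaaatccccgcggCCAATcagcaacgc
Birc5: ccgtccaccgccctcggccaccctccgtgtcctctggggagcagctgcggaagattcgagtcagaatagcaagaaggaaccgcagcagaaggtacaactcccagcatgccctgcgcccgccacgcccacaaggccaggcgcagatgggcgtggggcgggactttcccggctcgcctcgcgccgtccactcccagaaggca
Cdk1: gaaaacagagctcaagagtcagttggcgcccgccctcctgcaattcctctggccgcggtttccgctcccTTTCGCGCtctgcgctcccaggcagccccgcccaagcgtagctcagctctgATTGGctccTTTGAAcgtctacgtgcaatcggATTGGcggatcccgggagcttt
Kif11 carries a CHR match at -19 and a CCAAT box at -45, Plk1 a CCAAT box at -14 with its CHR match at 31, after the start site, and Birc5 none of the motifs searched. Cdk1 carries an E2F match at -131, a CHR match at -71 and CCAAT boxes at -80 and -48. Outside the bases printed, its window also holds a CHR match at -15 and a CCAAT box at -208.

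The same letters were counted in both classes. RefSeq windows from 250 bases before to 50 bases after the start site were at hand for 29 members, 11 replication and 18 mitosis, among 32851 windows in all. A single window was used for each member, the one with the most upstream start site. No such choice was made for the share of all windows, so the sets compared were not picked alike. An E2F word (TTTCCCGC, TTTCGCGC, TTTGCCGC or TTTGGCGC, on either strand) stood in 4 of 11 replication windows (36.4%; Mcm3, Mcm5, Mcm6 and Mcm7), in 1 of 18 mitosis windows (5.56%; Cdk1) and in 2.26% of all windows. A CHR word (TTTGAA or TTCGAA, on either strand) stood in 2 of 11 replication windows (18.2%; Mcm2 and Mcm7), in 15 of 18 mitosis windows (83.3%) and in 19.2% of all windows. CCAAT, on either strand, stood in 8 of 11 (72.7%), 17 of 18 (94.4%) and 37.4%. CHR and CCAAT stood together in 83.3% of mitosis windows and in 7.52% of all windows. The E2F words of Mcm5 overlap each other, as do 2 of those of Mcm6. These matches are a description of letters, and no binding was measured here.

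**Figure D1:**
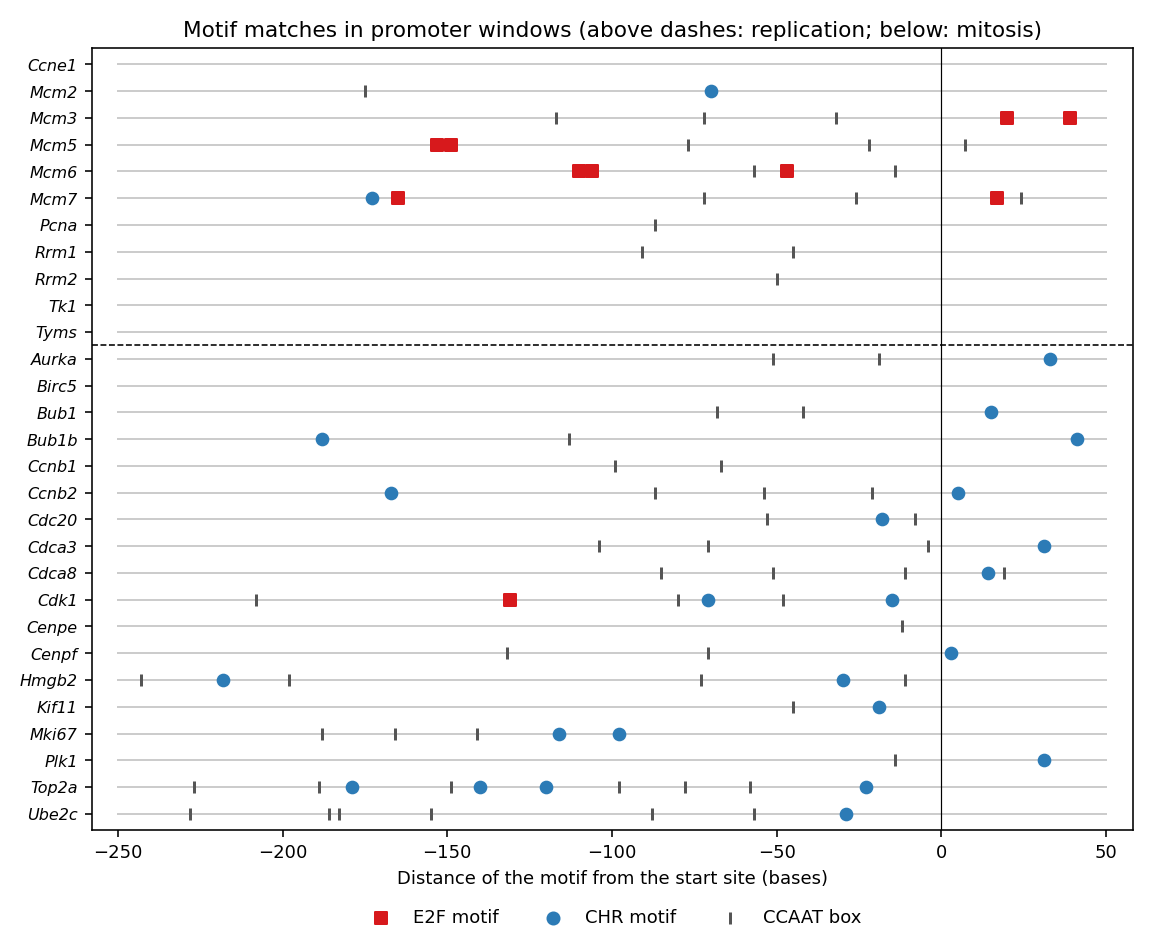
Motif matches in the promoter windows of 29 members; the x axis is the distance of the match's first base from the start site in bases, squares are E2F words, circles CHR words and ticks CCAAT boxes, with 11 replication genes above the dashed line and 18 mitosis genes below it. E2F words stand in 4 replication windows and 1 mitosis window, and CHR words in 2 and 15.

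The mean level of the replication genes was highest in microglia alone, although single libraries overlapped. Their CPM summed to 741, 1135, 1253 and 455 in libraries 1 to 4 of microglia alone (896 ± 367, n = 4), to 371, 453 and 212 with untreated neurons (345 ± 123, n = 3) and to 592, 571, 297 and 400.2 with fibril-loaded neurons (465 ± 141, n = 4). Library 4 of microglia alone, the lowest of its group, was just above all libraries with untreated neurons and below libraries 1 and 2 with fibril-loaded neurons. The mean of every replication gene was highest in microglia alone (13 of 13). For 11 of 13 the order was microglia alone, fibril-loaded, then untreated neurons. The shares of all genes with these orders were not counted. In bulk libraries such as these, fewer dividing cells and less RNA of these genes per cell cannot be told apart.

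The mitosis genes spread widely within each co-culture. Their CPM summed to 1411, 2133, 1365 and 944 in microglia alone (1463 ± 494, n = 4), to 1617, 704 and 743 with untreated neurons (1021 ± 516, n = 3) and to 1508, 607, 821 and 657 with fibril-loaded neurons (898 ± 417, n = 4). Library 1 of each co-culture lay within the range of microglia alone, and the other 5 co-culture libraries lay below all 4 libraries of microglia alone. Library 1 held the highest value for 16 of 23 mitosis genes with untreated neurons and for 20 of 23 with fibril-loaded neurons, but for 4 and 6 of the 13 replication genes. It is also the library with the fewest detected genes in each group, and the part of that in its mitosis level was not tested. Without library 1 of every group the mitosis sums had means of 1481, 723 and 695 CPM and the replication sums 948, 332 and 423 CPM. The mean was highest in microglia alone for 18 of 23 mitosis genes. For 13 of 23 the order was microglia alone, untreated, then fibril-loaded neurons. Shares over all genes were not counted for these orders either. Within a library the mitosis sum was 1.09 to 2.07 times the replication sum in microglia alone, 1.55 to 4.36 times with untreated neurons and 1.06 to 2.77 times with fibril-loaded neurons, so the 3 ranges overlapped.

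**Figure D2:**
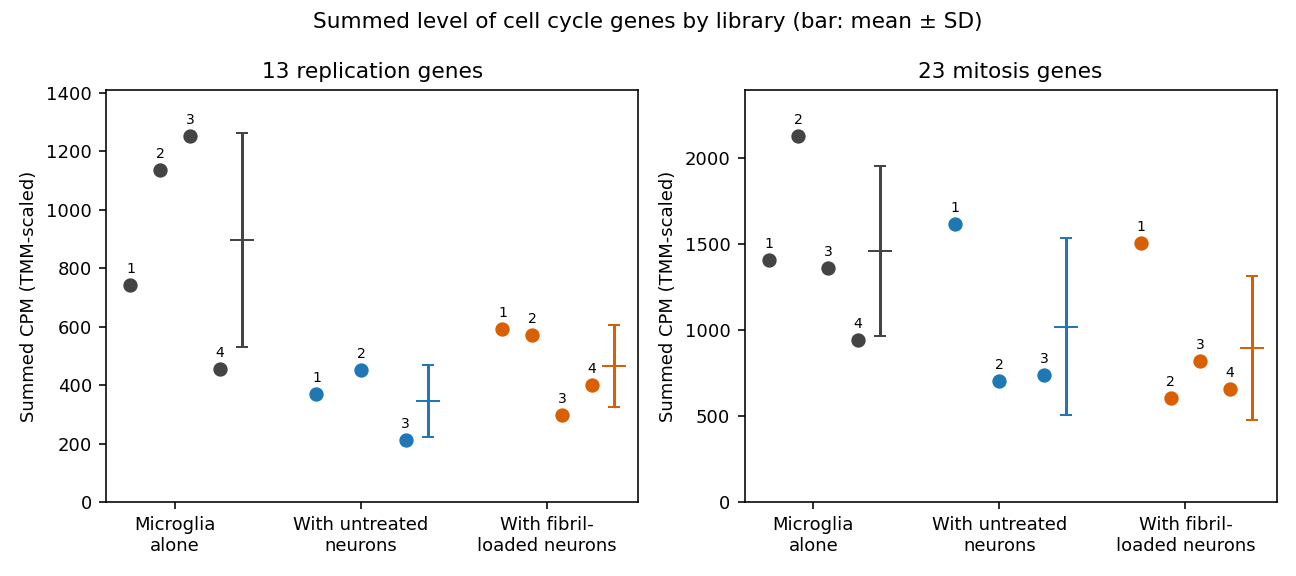
Summed CPM (y axis, from 0) of the 13 replication genes and the 23 mitosis genes in each library; points are libraries with their numbers, and bars are mean ± SD of a group. Replication sums are 212 to 453 with untreated neurons against 455 to 1253 in microglia alone, while for mitosis genes library 1 of each co-culture, at 1617 and 1508, stands among the libraries of microglia alone.

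Microglia with untreated neurons were compared with microglia alone for these genes. No matching 6 h step is listed for microglia alone. In either comparison with that group, the neurons and the handling of the co-culture cannot be told apart. All 13 replication genes were lower by fitted log2 fold change, with a median of -1.63, against -0.05 over all genes tested, of which 52.3% were below 0. The largest differences among those with counts in every library were in Mcm4 (-2.30), Mcm2 (-2.08) and Mcm7 (-1.91). That of Mcm4 was uneven, as libraries 1 to 4 of microglia alone held 3.29, 75.9, 88.6 and 2.84 CPM. Libraries 1 and 4 were thus below every library of both co-cultures, of which the lowest was at 5.44. Of the mitosis genes 20 of 23 were below 0, with a median of -0.47, and the 3 above 0 were the cyclin gene Ccnb2 (1.01), the spindle motor gene Kif11 (0.63) and the kinase gene Aurka (0.36).

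None of the 36 passed edgeR's quasi-likelihood test with Benjamini-Hochberg (BH) adjustment over all genes tested at 0.05, where 0.461% of genes were called higher and 0.177% lower. At an unadjusted p below 0.05, 6 of 13 replication genes (Mcm2, Mcm3, Mcm4, Mcm6, Mcm7 and Ccne2) and 2 of 23 mitosis genes (Stmn1 and Plk1) were lower, beside 5.67% of all genes, and no member was higher, beside 4.66%. DESeq2 called 2 members lower at the same threshold, Mcm7 and Ccne2, beside 2.76% of the genes to which it gave an adjusted p, and none higher, beside 1.51%. The CPM ranges of the groups lay apart, with untreated neurons lower, for 5 replication genes (Mcm7, Mcm2, Ccne1, Ccne2 and Rrm1) and 1 mitosis gene (Stmn1), beside 5.45% of all genes, and for no member with untreated neurons higher, beside 4.9%.

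Mcm7, a subunit of the MCM helicase, had the smallest p. Its CPM were 202, 176, 263 and 123 in microglia alone and 44.9, 82.7 and 25.01 with untreated neurons. Every library of microglia alone was above every library with untreated neurons. The log2 fold change was -1.91 (SE 0.46, unadjusted 95% interval -2.87 to -0.95) with an edgeR BH-adjusted p of 0.0614, and without library 2 of the untreated co-culture it was -2.45 with an adjusted p of 0.0292. The gene lies on chromosome 5 from 138164583 to 138172111 (GRCm38.p6), and exons of Cops6, a COP9 signalosome subunit gene, lie on the other strand within its last 500 bases. Whether strand was used in counting is not given in the sources used here, so reads of the pair cannot be told apart. Cops6 itself was at 45.6 ± 10.6 CPM in microglia alone and 53.1 ± 22.999 with untreated neurons.

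Mcm2 and Mcm3, which belong to the same helicase ring, had the next smallest p of this class. Mcm2 was at 41.1, 60.9, 82.2 and 56.5 CPM in microglia alone and at 10.6, 24.3 and 7.88 with untreated neurons. These ranges did not overlap (log2 fold change -2.08 ± 0.72 SE, adjusted p = 0.272 by edgeR). Mcm3 was at 84.0, 214, 184 and 27.2 CPM in microglia alone and at 21.2, 86.8 and 29.3 with untreated neurons. Libraries 1 and 4 of microglia alone lay below the highest untreated library (log2 fold change -1.47 ± 0.58 SE, adjusted p = 0.386 by edgeR). Over the 6 subunits together the CPM were 503, 734, 905 and 286 in microglia alone and 182, 299 and 98.3 with untreated neurons, so library 4 of microglia alone was below 1 untreated library.

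Cyclin E, the cyclin that drives the G1 to S transition, was low and sparsely counted. Ccne2 was at 32.0, 57.8, 8.68 and 27.6 CPM in microglia alone and at 2.60, 0 and 4.44 with untreated neurons. Ccne1 was at 22.6, 17.8, 9.74 and 3.18 CPM in microglia alone and at 1.09, 1.97 and 0 with untreated neurons. Neither range overlapped, and the unadjusted 95% intervals were wide, from -6.82 to -0.65 for Ccne2 and from -8.31 to 0.91 for Ccne1 on the log2 scale.

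The other replication genes showed smaller or less even differences. Pcna, the sliding clamp of the replication fork, was at 108 ± 73.2 CPM in microglia alone and 78.8 ± 7.96 with untreated neurons, and 1 library of microglia alone, at 13.3, was below all others of the study. Rrm1, the large subunit of ribonucleotide reductase, was at 33.4 to 61.9 CPM in microglia alone and 18.8 to 30.8 with untreated neurons. The remaining members were Mcm4 (42.6 ± 46.0 and 8.69 ± 4.48 CPM), Mcm5 (91.7 ± 42.3 and 29.7 ± 31.8), Mcm6 (94.3 ± 51.4 and 43.6 ± 20.1), the small reductase subunit Rrm2 (22.9 ± 22.7 and 18.8 ± 16.5), thymidylate synthase Tyms (12.4 ± 9.14 and 2.95 ± 2.83) and thymidine kinase Tk1 (55.8 ± 23.04 and 21.8 ± 16.9), each with microglia alone first. All 6 of these had overlapping ranges.

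**Figure D3:**
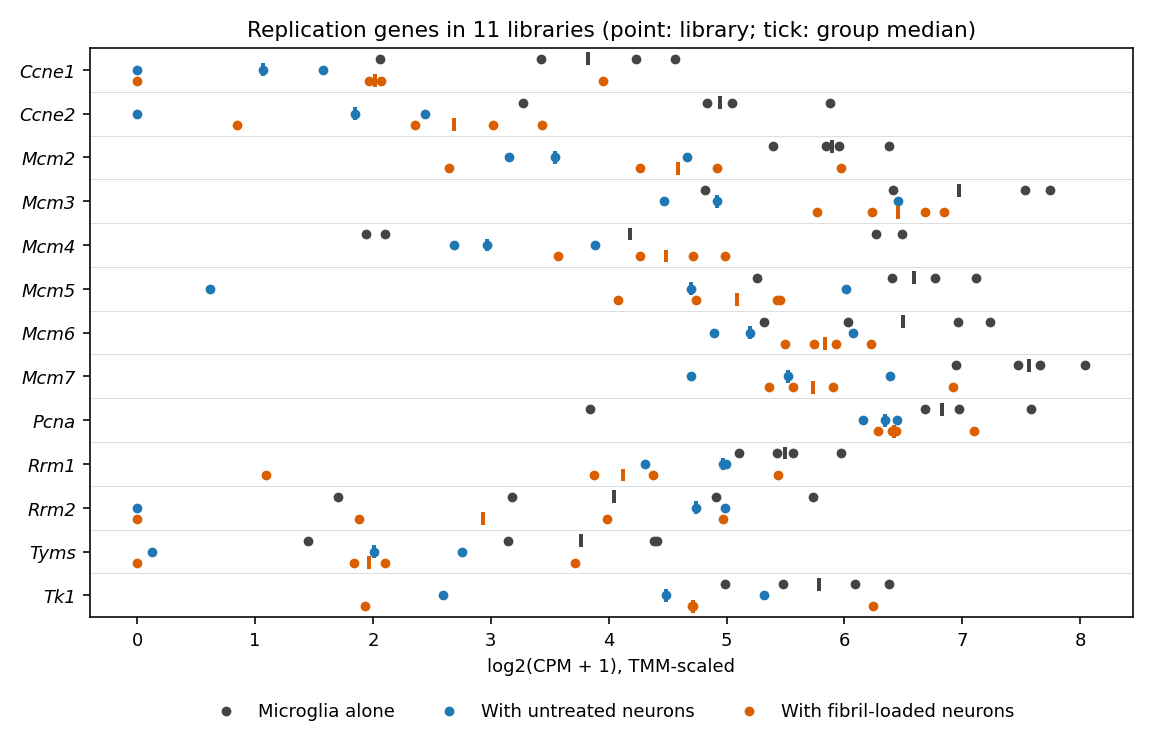
Level of each of the 13 replication genes in 11 libraries; the x axis is log2(CPM + 1), points are libraries and ticks are group medians. Mcm7 in microglia alone (123 to 263 CPM) stands above all 7 co-culture libraries, while Pcna and Rrm2 overlap.

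Among the mitosis genes Stmn1, the gene of the microtubule-destabilizing protein stathmin, had the smallest p. Its CPM were 331, 318, 206 and 169 in microglia alone and 129, 117 and 130.3 with untreated neurons. The ranges did not overlap (log2 fold change -1.03 ± 0.38 SE, adjusted p = 0.334 by edgeR). Stathmin is also abundant in young neurons, and a list of 16 neuronal marker genes, of which Snap25 and Slc17a6 were at 0 in all libraries, summed to 83.9 to 180.05 CPM in microglia alone and 6.10 to 52.5 with untreated neurons. The part of neuronal RNA in the Stmn1 difference was not tested.

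Plk1, the kinase that matures centrosomes and promotes mitotic entry, was at 41.4, 94.8, 24.4 and 14.4 CPM in microglia alone and at 15.1, 16.4 and 10.2 with untreated neurons. Only library 4 of microglia alone overlapped the untreated libraries (log2 fold change -1.65 ± 0.71 SE, adjusted p = 0.42 by edgeR). Cdc20, the activator of the anaphase-promoting complex, was at 70.7, 20.2, 48.3 and 41.2 CPM in microglia alone and at 20.8, 10.1 and 21.0 with untreated neurons. Library 2 of microglia alone lay within the untreated range (log2 fold change -1.38 ± 0.75 SE, adjusted p = 0.544 by edgeR). Exons of Elovl1 lie on the other strand in the last 500 bases of Cdc20, so the same limit on strand holds for it.

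Mki67, the gene of the Ki-67 antigen used to mark dividing cells, was at 81.4, 129, 74.3 and 66.7 CPM in microglia alone and at 98.6, 23.7 and 49.6 with untreated neurons. Library 1 with untreated neurons lay inside the range of microglia alone and the other 2 lay below it (log2 fold change -0.62 ± 0.59 SE, adjusted p = 0.891 by edgeR). Top2a, the topoisomerase that untangles chromosomes, was at 256, 349.8, 326 and 175 CPM in microglia alone against 389, 150.02 and 71.8. Its library 1 with untreated neurons was the highest of all 11 libraries. Kif11, the motor that pushes spindle poles apart, was at 30.9, 32.7, 30.5 and 6.52 CPM in microglia alone and at 81.8, 17.1 and 17.8 with untreated neurons. The other 2 untreated libraries were below 3 of the 4 libraries of microglia alone.

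Microglia with fibril-loaded neurons were compared with microglia alone by the same test, and this comparison shares its 4 control libraries with the one above. All 13 replication genes were again below 0, with a median of -1.08 against -0.04 over all genes tested, of which 52.1% were below 0. Of the mitosis genes 21 of 23 were below 0, with a median of -0.79. The 2 above 0 were the spindle midzone kinesin gene Kif20a (0.39) and the cyclin gene Ccna2 (0.07). Both have exons of another gene on the other strand in their last 500 bases (Cdc23 for Kif20a, Exosc9 for Ccna2), so the limit on strand given for Mcm7 holds for both. No member passed edgeR's test, where 0.266% of genes were called higher and 0.0532% lower. At an unadjusted p below 0.05, 1 replication gene (Mcm7) and 4 mitosis genes (Stmn1, Kif11, Birc5 and Cdc20) were lower, beside 3.89% of all genes, and none was higher, beside 4.25%. DESeq2 called 2 members lower, Mcm7 and Stmn1, beside 1.19% of genes, and none higher, beside 1.22%. Ranges lay apart for Mcm7, Stmn1 and Ube2c, each lower with fibril-loaded neurons, beside 2.92% of all genes, and for none higher, beside 2.7%.

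Mcm7 was at 120.0, 58.7, 40.0 and 46.4 CPM with fibril-loaded neurons, where its library 1 was just under the lowest library of microglia alone, at 123. The log2 fold change was -1.53 (SE 0.41, unadjusted 95% interval -2.38 to -0.67, edgeR BH-adjusted p = 0.144). Mcm5 was at 108, 83.9, 137 and 37.4 CPM in microglia alone and at 42.0, 42.7, 25.8 and 15.9 with fibril-loaded neurons. Library 4 of microglia alone lay inside the fibril range (log2 fold change -1.54 ± 0.74 SE, adjusted p = 0.615 by edgeR). Ccne2 was at 9.79, 7.12, 4.13 and 0.796 CPM with fibril-loaded neurons, and its highest library was above library 3 of microglia alone, at 8.68 (log2 fold change -2.53 ± 1.25 SE, adjusted p = 0.638 by edgeR). Its last 500 bases hold exons of Ints8 on the other strand.

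Stmn1 was at 162, 71.8, 141 and 52.7 CPM with fibril-loaded neurons, all below the 169 of the lowest library of microglia alone (log2 fold change -1.26 ± 0.35 SE, adjusted p = 0.167 by edgeR). Mcm7 and Stmn1 were the members whose lowest library of microglia alone stood above all 7 co-culture libraries. The share of all genes with that pattern was not counted. Ranges were lower and apart for 5.45% of all genes with untreated and for 2.92% with fibril-loaded neurons. The neuronal marker list was lower here too, at 10.4 to 53.3 CPM, and its part in the Stmn1 difference was not tested. Kif11 was at 6.87, 3.39, 0 and 6.24 CPM with fibril-loaded neurons, and 1 library of microglia alone, at 6.52, lay inside that range (log2 fold change -2.60 ± 1.04 SE, adjusted p = 0.509 by edgeR). Birc5, the gene of the chromosomal passenger protein survivin, was at 77.5, 116, 35.4 and 55.5 CPM in microglia alone and at 71.4, 8.99, 21.2 and 22.6 with fibril-loaded neurons. Its library 1 with fibril-loaded neurons lay among the libraries of microglia alone and the other 3 lay below them (log2 fold change -1.19 ± 0.54 SE, adjusted p = 0.592 by edgeR).

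Mki67 had the same split, at 126, 15.4, 50.3 and 22.3 CPM with fibril-loaded neurons, where library 1 was near the highest library of microglia alone and the other 3 were below the lowest (log2 fold change -0.72 ± 0.55 SE, adjusted p = 0.997 by edgeR). Top2a was at 309.6, 101, 92.8 and 129.7 CPM, again with library 1 inside the range of microglia alone and the other 3 below it. Ube2c, the ubiquitin-conjugating enzyme of the anaphase-promoting complex, was at 41.7, 54.8, 38.2 and 33.9 CPM in microglia alone and at 29.2, 24.2, 18.9 and 25.3 with fibril-loaded neurons. Its ranges did not overlap, and its library 1 was the highest of the 4 by a small margin. Without library 1 of every group the median of the mitosis genes was -1.38 in this comparison and -1.01 with untreated neurons, with no member called in either. For replication genes the medians were then -1.59 and -2.04.

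The remaining mitosis genes had overlapping ranges in all comparisons. For the cyclins and their kinase, the means (microglia alone, then the untreated and the fibril co-culture) were 31.8 ± 24.997, 22.8 ± 11.04 and 33.3 ± 6.56 CPM for Ccna2, 14.2 ± 3.69, 6.63 ± 6.71 and 12.1 ± 12.8 for Ccnb1, 23.1 ± 16.3, 46.4 ± 45.6 and 22.2 ± 10.1 for Ccnb2, and 86.0 ± 69.4, 59.3 ± 18.04 and 52.99 ± 16.7 for Cdk1. For the spindle checkpoint and kinetochore genes they were 14.3 ± 11.9, 7.40 ± 8.22 and 2.85 ± 5.05 CPM for Bub1, 21.9 ± 18.3, 16.7 ± 17.5 and 11.7 ± 11.2 for Bub1b, 35.3 ± 33.6, 29.6 ± 23.9 and 19.2 ± 10.1 for Cenpe, and 40.7 ± 27.7, 21.7 ± 24.8 and 28.7 ± 10.7 for Cenpf. Libraries 2 and 3 of microglia alone held 155 and 136 CPM of Cdk1, the kinase that drives mitotic entry, and library 4 held 21.2, below all 7 co-culture libraries.

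The Aurora kinases and their partners build the spindle and correct its attachments. The means, in the same order of groups, were 13.7 ± 11.8, 17.6 ± 12.7 and 7.25 ± 4.46 CPM for Aurka, 8.06 ± 7.15, 7.94 ± 7.01 and 4.05 ± 4.49 for Aurkb, 34.7 ± 21.5, 24.2 ± 11.2 and 31.4 ± 23.3 for the Aurora A activator Tpx2, and 69.3 ± 26.1, 55.8 ± 44.1 and 52.0 ± 27.2 for Cdca8, which encodes borealin of the passenger complex. Cdca3, which triggers mitotic entry, was at 34.3 ± 14.9, 16.0 ± 12.01 and 7.59 ± 10.5 CPM. Kif20a was highest with fibril-loaded neurons, at 39.0 ± 19.3, 29.9 ± 17.7 and 51.05 ± 12.9 CPM, and the chromatin protein gene Hmgb2 was at 149 ± 53.6, 107 ± 57.4 and 139 ± 61.5. Pseudogenes of Pcna, Ccnb1, Ccnb2, Stmn1 and Tyms are annotated, so the authors' counting may have split reads of these 5 genes.

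**Figure D4:**
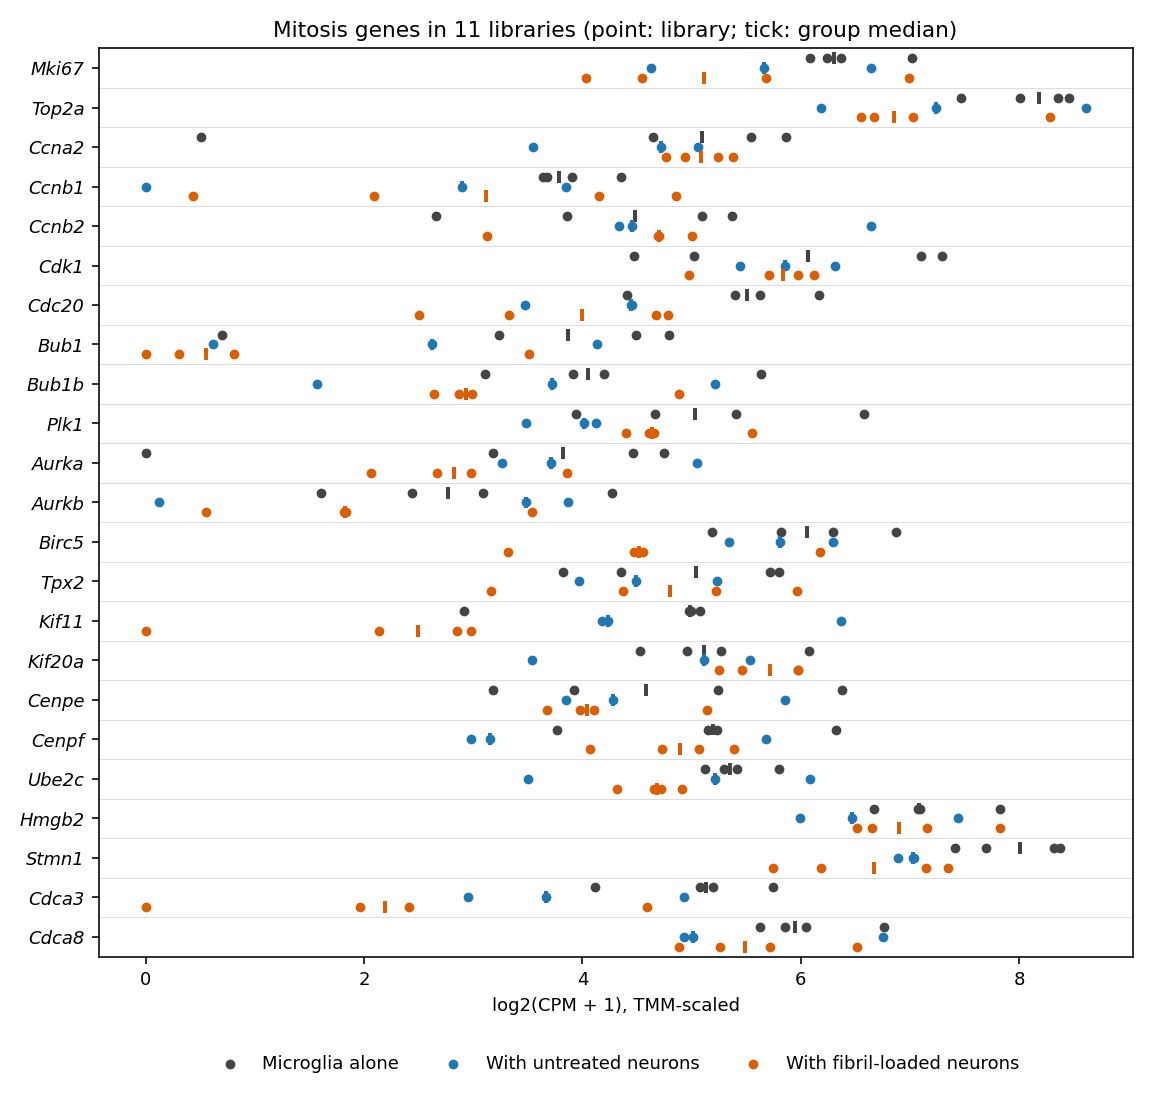
Level of each of the 23 mitosis genes in 11 libraries; the x axis is log2(CPM + 1), points are libraries and ticks are group medians. Stmn1 in microglia alone (169 to 331 CPM) stands above all co-culture libraries, while Mki67 and Top2a overlap through library 1 of each co-culture.

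The co-cultures were compared with each other to see whether fibrils in the neurons mattered for these genes. No member was called by edgeR, nor was any gene of the table (0.0% higher and 0.0% lower), and DESeq2 called 0 members, beside 1.26% of genes that it called higher and 0.373% lower. At an unadjusted p below 0.05 stood 1 member, Kif11, beside 1.3% of all genes that were lower and 2.64% that were higher. Replication genes were mostly above 0 (11 of 13, median 0.56) and mitosis genes mostly below 0 (16 of 23, median -0.24), beside a median of 0.00 and 50.0% below 0 over all genes. The difference between the 2 classes was not tested.

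Kif11 was lower with fibril-loaded neurons, where its highest library, at 6.87 CPM, was below the lowest with untreated neurons, at 17.1 (log2 fold change -3.23 ± 1.10 SE, adjusted p = 1.0 by edgeR). Plk1 was higher with fibril-loaded neurons, at 46.0, 20.1, 23.5 and 24.2 CPM against 15.1, 16.4 and 10.2 (log2 fold change 1.03 ± 0.69 SE, adjusted p = 1.0 by edgeR). These 2 members had ranges apart, 1 in each direction, beside 2.3% of all genes lower and 2.39% higher. Birc5 had the next smallest p among the mitosis genes (log2 fold change -0.88 ± 0.58 SE, adjusted p = 1.0 by edgeR).

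Of the replication genes Mcm3 was at 102, 114, 74.2 and 53.4 CPM with fibril-loaded neurons, against 21.2, 86.8 and 29.3 with untreated neurons (log2 fold change 0.91 ± 0.56 SE, adjusted p = 1.0 by edgeR). Mcm2 was at 18.2, 61.7, 5.26 and 29.2 CPM against 10.6, 24.3 and 7.88 (1.00, SE 0.69), and Mcm4 at 30.6, 18.2, 10.9 and 25.3 CPM against 5.44, 13.8 and 6.82 (1.29, SE 0.98). In each of the 3 the highest untreated library was above the lowest fibril library. All 6 helicase genes had means in the order microglia alone, fibril-loaded, untreated neurons, an order not counted over all genes. Their summed CPM with fibril-loaded neurons were 357, 369, 209 and 230.2. The log2 fold change of Mcm7 was 0.38 (SE 0.44, unadjusted 95% interval -0.53 to 1.29) and that of Mki67 was -0.10 (SE 0.59, interval -1.32 to 1.12), both with an edgeR BH-adjusted p of 1.0. Leaving out library 1 with fibril-loaded neurons gave -0.073 for Mcm7, and leaving out library 1 with untreated neurons gave 0.56 for Mki67.

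**Figure D5:**
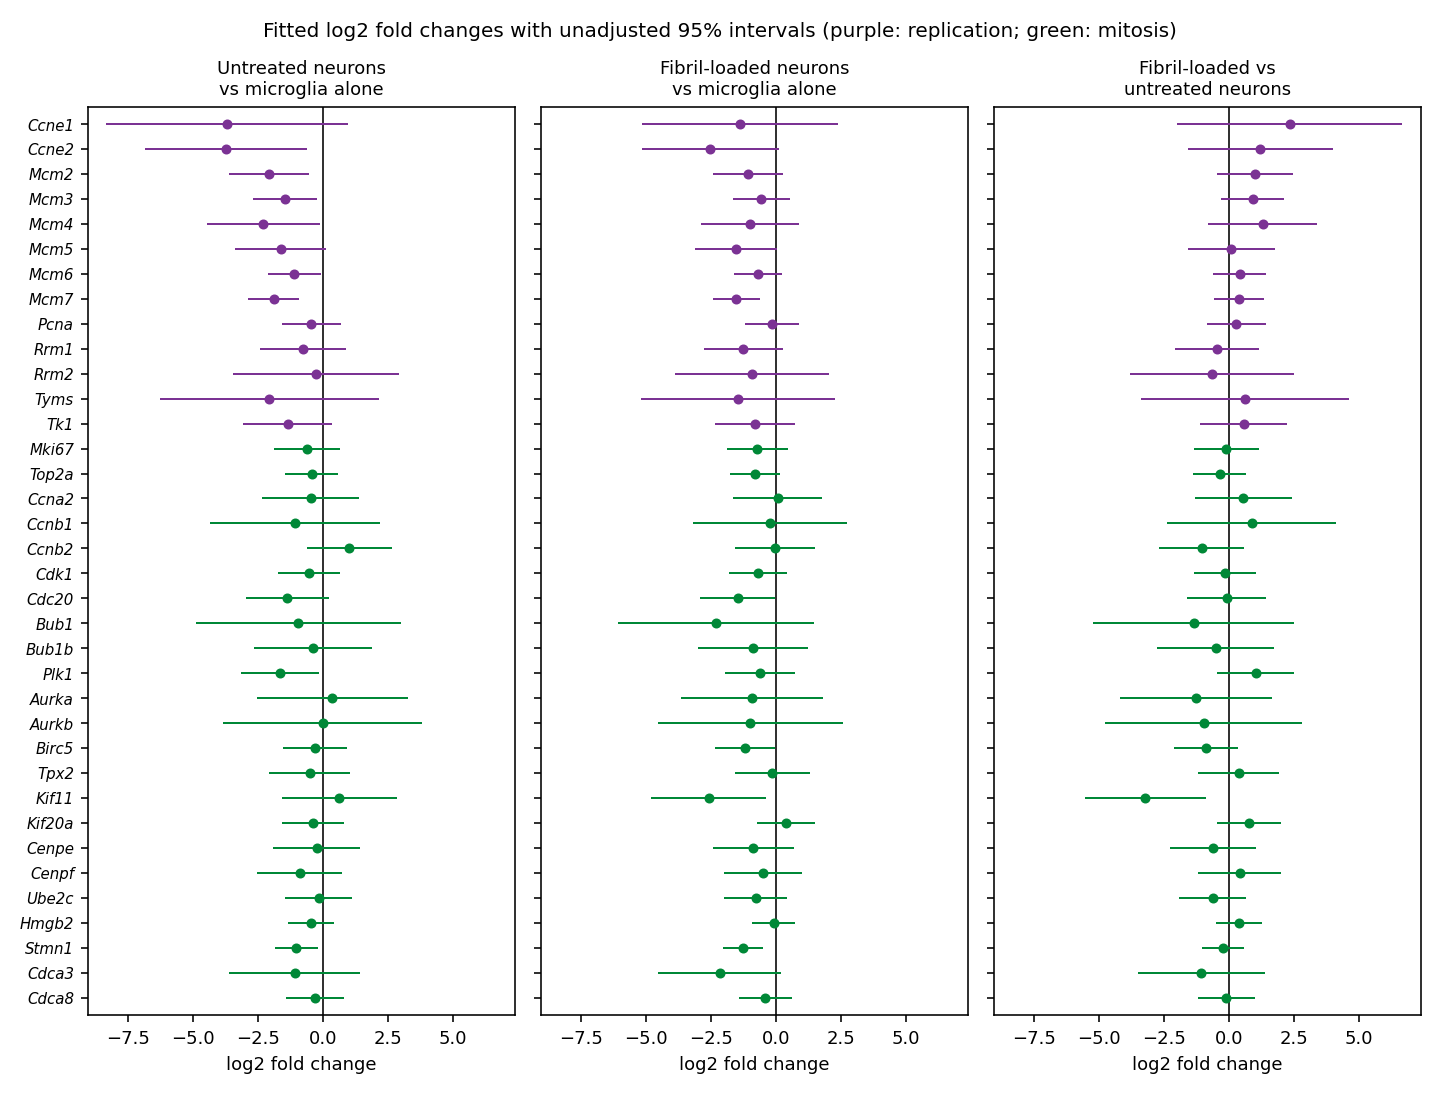
Fitted log2 fold changes (x axis) of the 36 members in the 3 comparisons; points are estimates, lines are unadjusted 95% intervals, purple is replication and green is mitosis. All 13 replication estimates are below 0 in both comparisons with microglia alone, and the intervals of most members include 0.

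Other genes of the cell cycle were taken from lists of known cell cycle genes, and none of their members passed edgeR's test in any comparison. Of 41 further replication genes 40 were tested, and 34 of 40 were below 0 both with untreated (median -0.86) and with fibril-loaded neurons (median -1.06), with 22 of 40 below 0 between the co-cultures. Their summed CPM ran from 922 to 1448 in microglia alone, 553 to 756 with untreated neurons and 478 to 809 with fibril-loaded neurons, so that microglia alone overlapped neither co-culture. The smallest p with untreated neurons were those of Ung, a uracil-DNA glycosylase (56.2 ± 23.4 CPM in microglia alone and 12.5 ± 9.21), and of Pclaf, a PCNA partner (129.96 ± 49.0 and 51.9 ± 35.9). With fibril-loaded neurons they were those of Rpa2, a subunit of the single-strand binding protein RPA (54.0 ± 11.1 and 10.6 ± 5.99 CPM, log2 fold change -2.35, edgeR BH-adjusted p = 0.192), and of the origin licensing factor Cdt1 (73.9 ± 19.9 and 23.3 ± 7.83 CPM, -1.67, 0.197). Both had ranges apart in both comparisons with microglia alone. Between the co-cultures the smallest p were those of Cdc6, at 0.299 ± 0.553 CPM with fibril-loaded neurons and no count with untreated neurons, and of Ung.

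Of 50 further mitosis genes 48 were in the table and 46 were tested. With untreated neurons 35 of 46 were below 0 (median -0.77), with fibril-loaded neurons 39 of 46 (median -0.97), and between the co-cultures 27 of 46 (median -0.20). Their sums overlapped, at 947 to 1946 CPM in microglia alone, 508 to 1485 with untreated and 534 to 1204 with fibril-loaded neurons. The condensin gene Ncapg was at 7.44 ± 7.38 CPM in microglia alone, without a count with untreated neurons and at 3.97 ± 3.04 with fibril-loaded neurons. Hmmr, a spindle assembly gene, was at 25.6 ± 16.2 CPM in microglia alone and 1.57 ± 1.38 with untreated neurons. Incenp, the scaffold of the passenger complex, was at 118 ± 39.7 CPM in microglia alone and 49.3 ± 9.21 with fibril-loaded neurons, with ranges apart (log2 fold change -1.26, edgeR BH-adjusted p = 0.276), and Mybl2, the gene of B-MYB, was at 13.8 ± 14.7 and 0.123 ± 0.189 CPM. Between the co-cultures the smallest p were those of Ncapg and of the kinetochore gene Spc24 (8.75 ± 10.5 CPM with fibril-loaded and 42.0 ± 47.7 with untreated neurons).

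None of the activating regulators, which start the cycle, passed edgeR's test. Their summed CPM was 997 to 2715 in microglia alone, 646 to 937 with untreated and 913 to 2372 with fibril-loaded neurons, so the co-cultures overlapped. Of 14 activating regulators all 14 were below 0 with untreated neurons (median -1.27), 9 of 14 with fibril-loaded neurons (median -0.19), and 1 of 14 between fibril-loaded and untreated neurons (median 0.81). Ccnd1, the cyclin D1 gene that couples growth factor signals to the cycle, was at 1224 ± 624 CPM in microglia alone, 299 ± 82.6 beside untreated and 792 ± 505 beside fibril-loaded neurons. Its log2 fold change with untreated neurons was -2.03 ± 0.49 (SE; adjusted p = 0.0614 by edgeR), and between fibril-loaded and untreated neurons it was 1.40 ± 0.48 (SE; adjusted p = 1.0 by edgeR). The ranges overlapped in both. E2f1 was at 149.9 ± 89.8, 53.9 ± 34.3 and 56.7 ± 23.1 CPM (log2 fold change -1.48 and -1.40 against microglia alone, edgeR BH-adjusted p = 0.251 and 0.285). E2f2 was at 18.8 ± 10.5, 3.67 ± 1.78 and 19.5 ± 22.1 CPM.

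The restraining regulators, which slow the cycle, had medians near that of all genes, as did the targets of p53, a list that includes death effector genes. Of 22 restraining regulators 20 were tested, with 9 of 20, 8 of 20 and 9 of 20 below 0 in the comparisons of untreated and fibril-loaded neurons with microglia alone and of the co-cultures, and medians of 0.24, 0.14 and 0.23. Cdkn1b, the gene of the inhibitor p27, was at 77.1 ± 15.1 CPM in microglia alone and 129 ± 25.3 with untreated neurons, with ranges apart. E2f7 and E2f8, which encode repressors that are themselves made in S phase, were lower: E2f7 was at 8.81 ± 5.03 CPM in microglia alone, without a count with untreated neurons and at 1.82 ± 3.65 with fibril-loaded neurons, and E2f8 at 12.4 ± 4.50, 1.85 ± 1.96 and 1.12 ± 2.00. Of 18 p53 targets 17 were tested, with medians of 0.27, 0.12 and 0.28. Among those with the smallest p, the antiproliferative gene Btg2 was at 43.9 ± 22.4, 52.8 ± 29.1 and 17.3 ± 14.1 CPM, the death effector genes Bax at 61.1 ± 21.5, 31.7 ± 10.4 and 64.9 ± 22.8 and Bbc3 at 109.5 ± 48.7, 54.3 ± 10.5 and 64.3 ± 44.2, and Sesn2 at 7.80 ± 9.74, 0 and 1.68 ± 3.30.

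Microglial markers were abundant in every library. A list of 14 genes including Csf1r and C1qa summed to 14730 to 15342 CPM in microglia alone, 17727 to 21399 with untreated and 15495 to 21399.9 with fibril-loaded neurons. In each comparison with microglia alone, edgeR called 1 of the 14 higher, beside 0.461% and 0.266% of all genes. Means of Cx3cr1 were 602, 1880 and 1858 CPM and those of Cd68 932, 813 and 720, in the order microglia alone, untreated, fibril-loaded neurons. Genes listed as markers of other cell types were also counted, and whether such cells were present was not tested. In the neuronal list 12, 8 and 12 of 16 genes had a count in the 3 groups, in the order used above. Of the 7 tested, 6 were below 0 in both comparisons with microglia alone. With untreated neurons edgeR called 1 of the 7 lower, beside 0.177% of all genes, and with fibril-loaded neurons 0. Means of Dcx were 48.6, 0.0403 and 2.59 CPM, and those of Camk2a went the other way, at 0.471, 10.6 and 8.27. The sum of 8 neural progenitor genes was 472 to 990, 853 to 984 and 739 to 1315 CPM, mostly Vim, which microglia also express. Means of Nes (74.8, 19.95 and 49.7 CPM) and Sox2 (20.9, 2.80 and 4.197) were highest in microglia alone, those of Fabp7 (4.57, 16.2 and 3.24) and Pax6 (1.13, 1.52 and 0.0292) with untreated neurons, and Hes5 was at 0 in all libraries. Of 10 astrocyte genes 7, 8 and 10 had a count, and they summed to 21.8 to 56.9, 24.5 to 104 and 20.7 to 114 CPM. All 10 oligodendrocyte lineage genes had a count in each group, and they summed to 126 to 199, 222 to 265 and 138 to 261 CPM. Of 7 fibroblast and mural genes 3, 3 and 2 had a count (0 to 23.4, 0 to 2.69 and 0 to 5.14 CPM, with Dcn, Pdgfrb and Rgs5 at 0), and of 5 endothelial genes 2, 3 and 4 (28.9 to 113, 18.2 to 81.3 and 4.50 to 64.0 CPM, with Tek at 0). Of 5 neutrophil and monocyte genes 1, 3 and 3 had a count (0 to 2.58, 0 to 13.3 and 0 to 8.82 CPM, with Ly6g at 0). The part of any of these cells in the level of the cell cycle genes was not tested.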

How the data were processed

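RNA was isolated with a micro-column kit and sequenced as 3′ mRNA libraries (QuantSeq FWD), per the labels' protocols, in 11 libraries of primary microglia. The authors deposited a table of raw gene counts; values above 6 digits carry 6 significant digits. Their normalized table was not used. STAR, Partek and DESeq2 and the build mm10 stand in the submitters' processing notes, with no version. Strand use and duplicate removal in counting are not given in the sources used here. Groups follow the labelled treatment group, and libraries are numbered in accession order.

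Tests used edgeR 4.0.16 in R 4.3.3 (filterByExpr, TMM, glmQLFit and glmQLFTest, group as the only term, all 11 libraries, two-sided, BH adjustment over 11276 genes, threshold 0.05). Of the 16934 genes, 2828 had no count. The common biological coefficient of variation was 1.15. Intervals of log2 fold changes use edgeR's total degrees of freedom (residual plus prior) and are not adjusted. The code was tested on simulated data. Alternatives were RLE scaling, plain CPM for sums, DESeq2 1.42.0, a mean CPM minimum of 5 or no minimum, only the 2 groups compared, and leaving out each library; leaving out, in each group, the library with fewest detected genes, leaving out Rn45s, and a block by serial number in the titles, were added after seeing the data.

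The members and lists were chosen with earlier results of these data known. Fold changes with errors are given for the 3 members with the smallest p per class and comparison and always for Mcm7 and Mki67; levels are given for every member; each other list gives the 2 genes with the smallest p where none passed. Other members and list genes named with a value were picked after the values were seen. Coordinates and promoter windows are RefSeq GRCm38.p6, with UTRs and overlaps from GENCODE. In 25 of the 29 windows, a stretch of 20 bases after the start site lies in a GENCODE transcript of the gene. Promoters came from members with the smallest p per class with a window and a stretch free of annotated UTRs; the rule did not include Cdk1.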

Additional observations from a re-analysis of the deposited data

Results flagged for a closer look

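Single libraries stood apart from the rest of their group of 4 in 6 of 76 groups of member values or class sums. The rule was a gap to the nearest library larger than Dixon's 95% critical value of 0.829 of the group's range. Chance alone passes it in about 1 of 20 groups of independent, normally distributed values. These CPM were not transformed and the genes share their libraries, so that rate need not hold here. With fibril-loaded neurons, library 1 was high for Top2a (309.6 CPM, the others 92.8 to 129.7), Bub1b (28.5 CPM, the others 5.25 to 6.94) and Plk1 (46.0 CPM, the others 20.1 to 24.2). Library 2 was high for Pcna (136 CPM, the others 76.9 to 85.8) and library 4 for Bub1 (10.4 CPM, the others 0 to 0.751). In microglia alone library 4 was low for Kif11 (6.52 CPM, the others 30.5 to 32.7).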

How the results depend on the processing

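Calls of members depended on the test and the filter. With untreated neurons against microglia alone 0 members were called by edgeR, 2 without a filter on low counts (Mcm3 and Mcm7), 2 by DESeq2 (Ccne2 and Mcm7) and 0 to 1 on leaving out each library. With fibril-loaded neurons 2 were called without a filter and 2 by DESeq2 (Mcm7 and Stmn1 each), and 0 on leaving out each library. The adjusted p of Mcm7 was then 7.63e-04 and 0.00393 with untreated and 0.00668 and 0.0349 with fibril-loaded neurons. Over all genes the calls with untreated neurons (52 higher, 20 lower) became 155 and 79 without a filter and 174 and 319 by DESeq2; with fibril-loaded neurons 30 and 6 became 114 and 50, and 138 and 134; between the co-cultures 0 and 0 became 5 and 0, and 156 and 46. The median log2 fold change of the mitosis genes with untreated neurons ran from -1.04 (without library 1 of the untreated co-culture) to -0.19 (without library 2 of microglia alone), and was -0.27 without library 2 of the untreated co-culture and -1.01 without library 1 of every group. That with fibril-loaded neurons ran from -1.31 to -0.19 on leaving out each library, the last without library 2 of microglia alone. That between the co-cultures ran from -0.73 to 0.29, so its sign changed with single libraries. Between the co-cultures Mcm7 ran from -0.073 to 0.92 (the first without library 1 of the fibril co-culture) and was -0.14 without library 1 of every group, where fewest genes were detected, and Mki67 ran from -0.97 to 0.56. The causes were not tested. The medians of the replication genes kept their sign on leaving out each library: -1.91 to -1.24 with untreated neurons, -1.38 to -0.79 with fibril-loaded neurons and 0.20 to 0.85 between the co-cultures. The labels give no replicate numbers, but serial numbers in the titles fall into 4 sets, and the labels do not say what these mean. Within the sets, microglia alone always held position 1, the untreated co-culture 4 and the fibril co-culture 5. Deviations from the group means over all genes tested correlated at -0.026 to 0.058 in the 10 pairs of the same set. The 30 others correlated at -0.048 to 0.044, and 6 of 11 libraries correlated best with one of their own set. Between the co-cultures, same-set pairs correlated at 0.0578, 0.0415 and 0.0434, and the highest other pair at 0.0186. Same-set pairs with microglia alone ran from -0.0257 to 0.0408. Whether libraries were paired cannot be told from these values, and the main fit has no term for it. With the set as a replicate block, a fit added after seeing the data, edgeR called 1 member with untreated and 1 with fibril-loaded neurons, Mcm7 each time (log2 fold change -2.05 and -1.57, adjusted p = 0.00902 and 0.0306), and 0 between the co-cultures. Over all genes it called 73 higher and 22 lower, 53 and 13, and 0 and 0. Library 2 of microglia alone and library 1 of each co-culture, which have the highest mitosis sum of their group, are of the same set. With a spread this wide and 3 or 4 libraries a group, a p that misses the threshold does not show that a gene was equal in the groups.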
